A study of Mus musculus with 12 samples.

Results

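Schwann cell myelin genes were followed in dorsal root ganglia (DRG) of the mouse by RNA sequencing. The members were 7 genes of 24490 in the expression table, Mbp, Pmp22, Mag, Prx, Mal, Pllp and Cnp, taken by name. Each was measured as FPKM, fragments scaled by transcript length and by the mapped fragments of the sample, so that levels of different genes can be set side by side per length. All mice were adult male C57Bl/6 with no transgene or injury named in the labels, and all 12 samples were taken from ganglia of every spinal level.

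Intact ganglia were frozen whole, with 1 mouse in each of 4 samples. Unsorted ganglia were digested with dispase, collagenase and DNAse, triturated and filtered, with 2 mice pooled in each of 4 samples. MACS-sorted cells were dissociated in the same way and then run through a magnetic depletion column after non-neuronal cells had been tagged with biotinylated antibodies and microbeads, with 8 mice pooled in each of 4 samples. The column flow-through is a neuron preparation. By the criteria below, 9 of 10 markers of small-diameter nociceptors were called higher in it than in unsorted ganglia, against 8.15% of all genes tested. Among these 9, Trpv1 overlapped between the groups and lost its call in 10 of 20 alternative fits. Of 10 markers of large-diameter neurons, whose axons are the myelinated ones, 9 were called lower, against 12.5% of all genes tested. The question put to the myelin genes is how much of their RNA was left in this preparation.

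Myelinating Schwann cells wrap large axons of the peripheral nervous system in a membrane that they compact and that speeds conduction. Compact myelin is held together by small membrane and basic proteins, while the adaxonal, abaxonal and paranodal parts of the sheath keep their cytoplasm and carry adhesion molecules and cytoskeletal links. In the Schwann cell the transcription factors Sox10 and Egr2 switch on genes of the sheath and of its lipids, and in the ganglion Schwann cells lie beside satellite glia and the neurons.

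Promoter windows of the members are shown because 1 intact sample was highest and 1 unsorted sample lowest for all 7, while their residual levels after sorting differed. The same samples were also the extremes for many genes of other lists, given below. RefSeq windows of GRCm38.p6, 250 bases before the start site, were matched for 6 of the 7 members. Pmp22 has 4 such windows and Mag 3. For each gene only the window with its start site nearest to the gene edge in the expression table was kept. The other windows of Pmp22 and Mag do not enter the member counts below, so a motif at another start site of these genes would be missed. The core of the SOX motif, ACAAAG on either strand, was found in 2 of these 6 windows, those of Mag and Cnp, and in 16.5% of 32851 windows of the same length. The EGR motif GCGNGGGNG, searched on both strands, was found in none of the 6 and in 10.5% of all windows. Shown are Prx (chr7:27499074-27499323, plus strand), the member with the lowest residual share after sorting, Pmp22 (chr11:63131207-63131456, plus strand), the called member with the highest, and the windows with a motif match, Mag (chr7:30914864-30915113, minus strand) and Cnp (chr11:100574689-100574938, plus strand). Capitals mark the motif match, read from the opposite strand in Mag, which starts 126 bases before the start site in Mag and 167 bases before it in Cnp.
Prx: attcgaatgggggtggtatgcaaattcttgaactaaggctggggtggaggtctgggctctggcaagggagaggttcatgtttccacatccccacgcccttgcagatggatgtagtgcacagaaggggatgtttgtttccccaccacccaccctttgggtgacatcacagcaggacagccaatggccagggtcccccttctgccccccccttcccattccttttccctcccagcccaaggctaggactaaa
Pmp22: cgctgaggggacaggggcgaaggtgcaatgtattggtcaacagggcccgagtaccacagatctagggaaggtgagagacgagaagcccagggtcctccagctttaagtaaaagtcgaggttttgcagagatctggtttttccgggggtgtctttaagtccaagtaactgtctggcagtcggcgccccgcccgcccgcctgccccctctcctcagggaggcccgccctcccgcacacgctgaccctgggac
Mag: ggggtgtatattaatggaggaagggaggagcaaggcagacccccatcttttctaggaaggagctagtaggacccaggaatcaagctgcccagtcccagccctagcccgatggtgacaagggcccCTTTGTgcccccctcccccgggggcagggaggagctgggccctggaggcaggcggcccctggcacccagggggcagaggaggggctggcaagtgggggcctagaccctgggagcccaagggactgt
Cnp: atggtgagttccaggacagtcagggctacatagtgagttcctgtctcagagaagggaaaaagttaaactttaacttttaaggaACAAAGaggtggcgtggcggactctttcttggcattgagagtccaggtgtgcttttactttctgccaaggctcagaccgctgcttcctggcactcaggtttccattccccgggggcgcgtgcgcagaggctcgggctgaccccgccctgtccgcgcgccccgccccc
A match is a description of these letters only, and binding was not measured here.

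Markers of cell types were summed in FPKM over each sample. The sum of 8 Schwann cell markers ranged from 1748 to 2616 in intact ganglia, from 1489 to 2203 in unsorted ganglia and from 45.4 to 256 after sorting. The sum of 9 satellite glia markers was 2246 to 2810 in unsorted ganglia and 125 to 217 after sorting. The sorted sum was mostly Glul and Aldoc, with means of 100 and 31.6 FPKM, or 67.0% and 41.9% of their unsorted means. Gja1 kept 22.6% on average, and the rest of that list 0.580% to 2.34%. The sum of 9 pan-neuronal genes was 4249 to 4576 in unsorted ganglia and 3827 to 4905 after sorting. Single genes of that list went both ways. Syt1 and Avil were called higher after sorting, with log2-fold changes of 0.75 and 0.61. Map2 and Snap25 were called lower, with -1.77 and -0.94, and the other 5 were not called. The list also served for 1 of the alternative scalings. Red blood cell genes went the other way, with a sum of 112 to 399 in unsorted and of 1667, 2525, 12524 and 15312 in MACS-sorted replicates 1 to 4. Intact replicate 1 stood apart with a skeletal muscle sum of 2506 against 13.8 to 55.9 in the other 3 intact samples, and with 946 against 499 to 592 for fibroblast genes. Unsorted replicates 1 and 2 were the most alike of their group, with an SD of the log2 difference over 12283 genes of 0.34 against 0.36 to 0.42 for the other pairs. They were counted as 2 samples, and with the pair averaged the same 6 members were called lower after sorting. Read totals were not among the values used. The spacing of the lowest values put relative depth between 69.8% and 100.0% of the deepest sample, lowest in MACS-sorted replicate 1.

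By group means, the order of levels in both unsorted and intact ganglia was Pmp22, Mbp, Prx, Cnp, Mal, Pllp and Mag. Single samples departed from it, since Mbp exceeded Pmp22 in intact replicate 1 and Prx exceeded Cnp in only 1 of 4 unsorted samples. Their share of the summed FPKM was 0.481% to 0.796% for intact samples, 0.355% to 0.573% for unsorted samples and 0.170% to 0.358% after sorting. After sorting Mal lay above Prx in all 4 samples, while it lay below Prx in all unsorted samples, and Cnp lay above both. The ranges of Pmp22 and Mbp overlapped in all 3 groups, as did those of Prx and Cnp and of Cnp and Mal in the intact and unsorted groups, and those of Prx and Pllp and of Pllp and Mag after sorting.

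**Figure D1:**
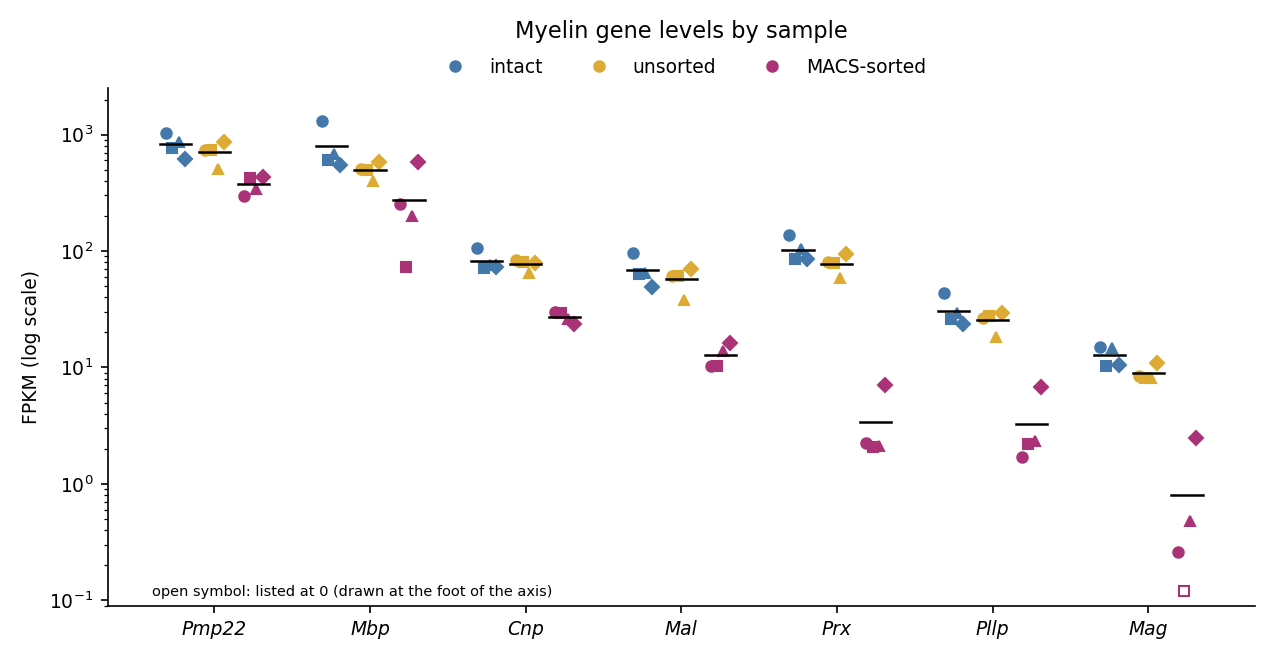
FPKM of the 7 myelin genes on a log axis in intact, unsorted and MACS-sorted samples. Circles, squares, triangles and diamonds are replicates 1 to 4 and bars are group means. Mag is listed at 0 in MACS-sorted replicate 2. For 6 genes every MACS-sorted sample lies below every unsorted sample, and for Mbp the groups overlap.

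MACS-sorted samples were compared with unsorted samples first, which asks what the column removed. Of the 7 myelin genes, 6 fell and none rose, against 12.5% of 12038 genes tested that were called lower and 8.15% called higher. A gene was called at a limma adjusted p under 0.05 (Benjamini-Hochberg), a log2 ratio of group means beyond 0.5 and more than 5 FPKM on average in whichever group was higher. The same 6 genes had no overlap between the groups, against 27.8% of all genes tested that were lower without overlap and 18.4% that were higher. The median log2-fold change of the 7 was -2.16, against -0.04 over all genes tested. In bulk samples fewer cells of a type and less RNA per cell cannot be told apart. The labels name separate samples but do not tie mice to replicates, so that p-values measure the spread between these samples.

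Mbp encodes myelin basic protein, which draws the cytoplasmic faces of the membrane together in compact myelin. Its FPKM was 507, 498, 396 and 586 in unsorted replicates 1 to 4 and 255, 73.0, 198 and 578 in MACS-sorted replicates 1 to 4. MACS-sorted replicate 4 lay within the unsorted range and replicate 2 far below it. The means were 497 ± 77.8 (SD, n = 4) and 276 ± 215 (SD, n = 4), and the log2-fold change of -1.19 (SE 0.50) was not called (limma, adjusted p = 0.077). The exact two-sided permutation test gave p = 0.114, and 4 samples against 4 allow no p below 0.0286. Without MACS-sorted replicate 4 the log2-fold change was -1.67 (limma, adjusted p = 0.0055) and Mbp was called lower, so that in this model the call turned on 1 library. The call also depended on the model, since Mbp was called lower with all samples kept and a replicate block (limma, adjusted p = 0.040).

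Markers of oligodendrocytes and endothelial cells also varied among the MACS-sorted samples. Mobp, an oligodendrocyte myelin gene, had FPKM values of 4.05, 1.43, 5.94 and 15.3 across the sorted replicates 1 to 4, against 0.447, 0.244, 0.859 and 0.0601 across the unsorted ones. It was called higher, with a log2-fold change of 3.58 (SE 0.72, limma adjusted p = 0.0026), and without MACS-sorted replicate 4 its log2-fold change was 3.03 at a mean too low for a call. The 9 oligodendrocyte markers summed to 4.59, 1.52, 6.21 and 16.5 after sorting and to 3.04 to 7.14 before. Of these 9, only Mobp and Cldn11 passed the filter for the test. Cldn11 went from 5.997, 6.38, 1.84 and 2.67 FPKM to 0.0860, 0.0372, 0.102 and 0.762 FPKM, with a log2-fold change of -3.89 (SE 0.62, limma adjusted p = 6.4e-04) at a level below that for a call. Olig2, Opalin and Nkx6-2 were listed at 0 in all 4 MACS-sorted samples. The 7 endothelial markers summed to 57.8, 15.0, 49.3 and 82.7 after sorting, the same order of replicates as Mbp, with 46.9 to 59.5 before, and none of the 7 was called. This order was picked out after the values were seen. Gja1, a satellite glia marker, had it too, at 24.9%, 4.41%, 20.2% and 40.7% of its unsorted mean, and Mobp did not. The part of oligodendrocyte or endothelial transcripts in the Mbp values was not tested. The Mbp row also joins 3 start-site groups, which the table does not separate.

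Pmp22, the tetraspan protein of compact myelin whose gene dosage is known to cause inherited neuropathies, was the most abundant member in every group. Its FPKM was 739, 732, 509 and 863 in unsorted samples and 295, 426, 340 and 431 in MACS-sorted samples. All 4 sorted values lay below the unsorted ones. The mean went from 711 ± 147 (SD, n = 4) to 373 ± 66.9 (SD, n = 4), a log2-fold change of -0.92 (SE 0.18, limma adjusted p = 0.0021), the least of the 6 called members.

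Mag and Cnp mark the parts of the sheath that are not compacted. Mag, the adhesion molecule on the side facing the axon, was at 8.37, 8.17, 8.07 and 11.0 FPKM in unsorted samples. After sorting it was listed at 0.258, 0, 0.484 and 2.47 FPKM, the lowest levels of any member, and the groups did not overlap. The log2-fold change on the log2(FPKM + 0.1) scale was -4.21 (SE 0.78, limma adjusted p = 0.0017). This size rests on the added constant, with -2.62 for a constant of 1 and -5.20 for 0.01, and on single libraries, with -3.46 without MACS-sorted replicate 2 and -5.02 without replicate 4. In each of these fits Mag was called lower.

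Cnp, a phosphodiesterase of non-compact myelin that binds the cytoskeleton, stayed much higher. It was at 83.8, 81.2, 64.3 and 79.0 FPKM in unsorted and at 29.7, 29.5, 25.9 and 23.7 FPKM in MACS-sorted samples. The sorted values had the smallest coefficient of variation of the 7 members, 10.8%, with a mean of 27.2 ± 2.92 (SD, n = 4) against 77.1 ± 8.77 (SD, n = 4) before. The log2-fold change was -1.498 (SE 0.11, limma adjusted p = 4.9e-06). Cnp was the only member that was lowest in MACS-sorted replicate 4, the replicate in which the other 6 were highest.

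Prx, or periaxin, links the outer Schwann cell membrane through dystroglycan to the basal lamina. It was at 79.97, 79.1, 58.1 and 95.1 FPKM in unsorted samples and at 2.25, 2.09, 2.0999 and 7.08 FPKM in MACS-sorted samples. The sorted replicates 1 to 3 were almost level and replicate 4 was more than 3 times as high. With a log2-fold change of -4.68 (SE 0.36, limma adjusted p = 8.0e-06) it had the largest fitted fall of the 7, and 0.914% of all genes tested had a lower log2-fold change. Its rank above Mag rests on the added constant, since Mag fell further, by -5.20, with a constant of 0.01.

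Mal and Pllp, or plasmolipin, are small tetraspan proteins of lipid-rich membrane. Mal was at 60.7, 61.6, 37.7 and 70.3 FPKM in unsorted and at 10.3, 10.4, 13.8 and 16.3 FPKM in MACS-sorted samples, a log2-fold change of -2.16 (SE 0.21, limma adjusted p = 3.1e-05). Pllp was at 26.4, 27.6, 18.3 and 29.6 FPKM in unsorted and at 1.70, 2.21, 2.32 and 6.75 FPKM in MACS-sorted samples, a log2-fold change of -3.13 (SE 0.37, limma adjusted p = 1.0e-04). Neither gene had overlap between the groups, and both were highest in MACS-sorted replicate 4. For each of the 6 called members the exact two-sided permutation test gave p = 0.0286, the smallest that it can give.

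The residual level in each MACS-sorted sample was then set as a percentage of the unsorted mean. Prx kept 2.88%, 2.68%, 2.69% and 9.06% in replicates 1 to 4. Mag kept 2.90%, 0%, 5.44% and 27.8%, and Pllp 6.69%, 8.67%, 9.11% and 26.5%. These 3 genes were low in replicates 1 to 3 and highest in replicate 4.

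Mal, Cnp and Pmp22 kept more, and more evenly. The residual share of Mal was 17.9%, 18.0%, 24.04% and 28.3%. That of Cnp was 38.6%, 38.3%, 33.7% and 30.7%, and that of Pmp22 41.5%, 59.96%, 47.8% and 60.6%. Mbp had the widest range, with 51.3%, 14.7%, 39.9% and 116%. The mean shares ran from 4.33% for Prx to 55.6% for Mbp, a ratio of 12.8 between genes of the same sheath.

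Replicate 4 weighed on these means. Without it the mean share was 2.75% for Prx, 2.78% in place of 9.02% for Mag, 8.16% in place of 12.7% for Pllp and 35.3% in place of 55.6% for Mbp, and 36.8% in place of 35.3% for Cnp. The list of 8 Schwann cell markers shares Prx and Mag with the members. The other 6 were all highest in replicate 4, with sums of 71.4, 43.3, 99.8 and 246 FPKM, as were 8 of 9 satellite glia markers, with Sox10 values of 0.258, 0.149, 0.361 and 2.32 FPKM. Fibroblast and red blood cell sums were highest there too, at 32.5 and 15312. The part of these cells in the residual myelin values was not tested.

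**Figure D2:**
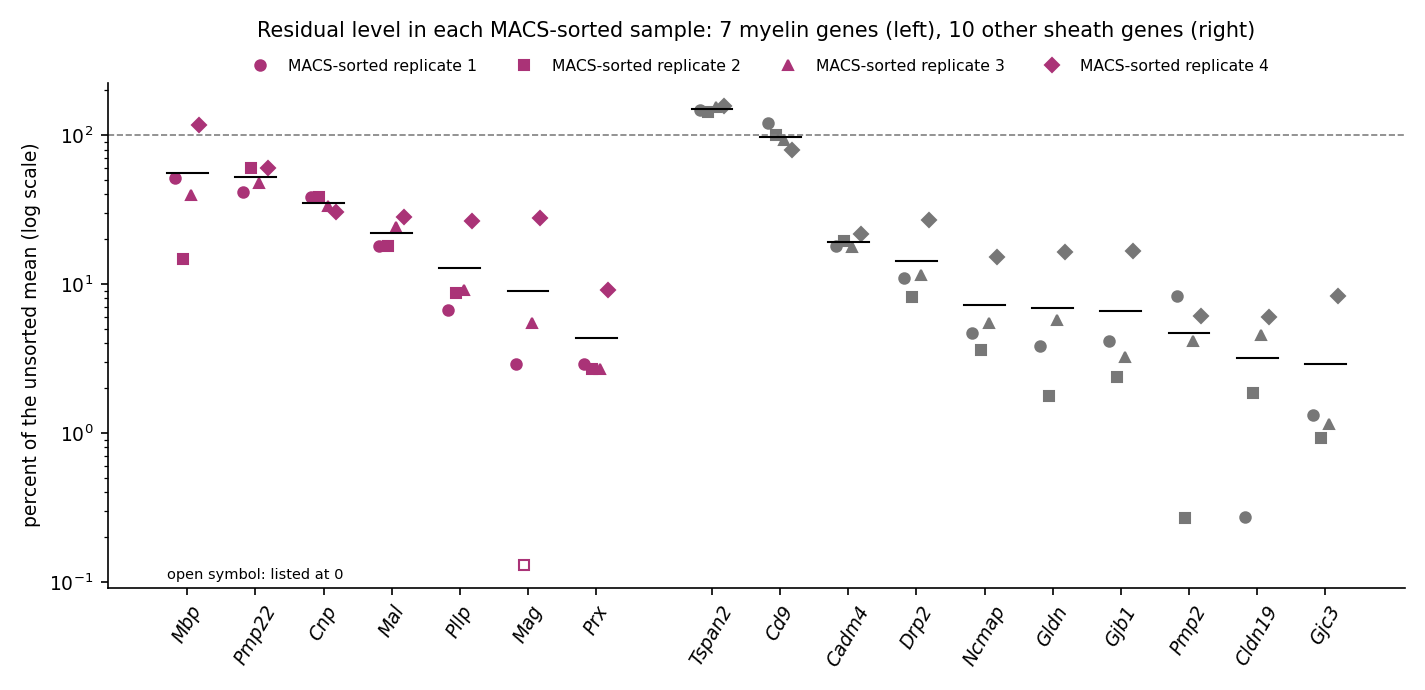
FPKM of each MACS-sorted sample as a percentage of the unsorted mean, on a log axis, for the 7 myelin genes at left and 10 other sheath genes at right. Symbols are replicates, black bars are means and the dashed line is the unsorted mean. Prx has a mean share of 4.33% and Mbp of 55.6%, and among the other sheath genes Tspan2 and Cd9 lie near or above the line.

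Ratios between members within a sample do not depend on the scaling of that sample. In unsorted ganglia Pmp22 was 8.76 to 9.25 times as high as Prx, and in intact ganglia 7.32 to 9.12 times. After sorting the ratio was 131, 204, 162 and 60.9. Mbp was 6.16 to 6.82 times as high as Prx in unsorted and 34.9 to 113 times in MACS-sorted samples.

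The same held for the members at middle level. The ratio of Cnp to Prx was 0.831 to 1.11 before and 3.35 to 14.1 after sorting. For Mal it was 0.648 to 0.779 before and 2.31 to 6.59 after, and for Pllp 0.311 to 0.349 before and 0.757 to 1.11 after. None of these 5 ratios overlapped between unsorted and MACS-sorted samples. All have Prx, the member with the largest fall at the added constant of 0.1, as their denominator. Mag was the exception, with 0.103 to 0.139 before and 0, 0.115, 0.231 and 0.349 after. Of all 21 pairs of members, 11 had ratios without overlap between these groups, and 4 were without overlap between unsorted and intact samples. The pairs reuse the same 7 genes. The share among pairs of other genes was not computed, so these counts are a description and cannot be judged against a background. The replicate nearest to the unsorted values was not the same for all ratios to Prx: it was replicate 4 for Pmp22, Cnp and Mal, replicate 2 for Mbp and replicate 1 for Pllp and Mag.

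**Figure D3:**
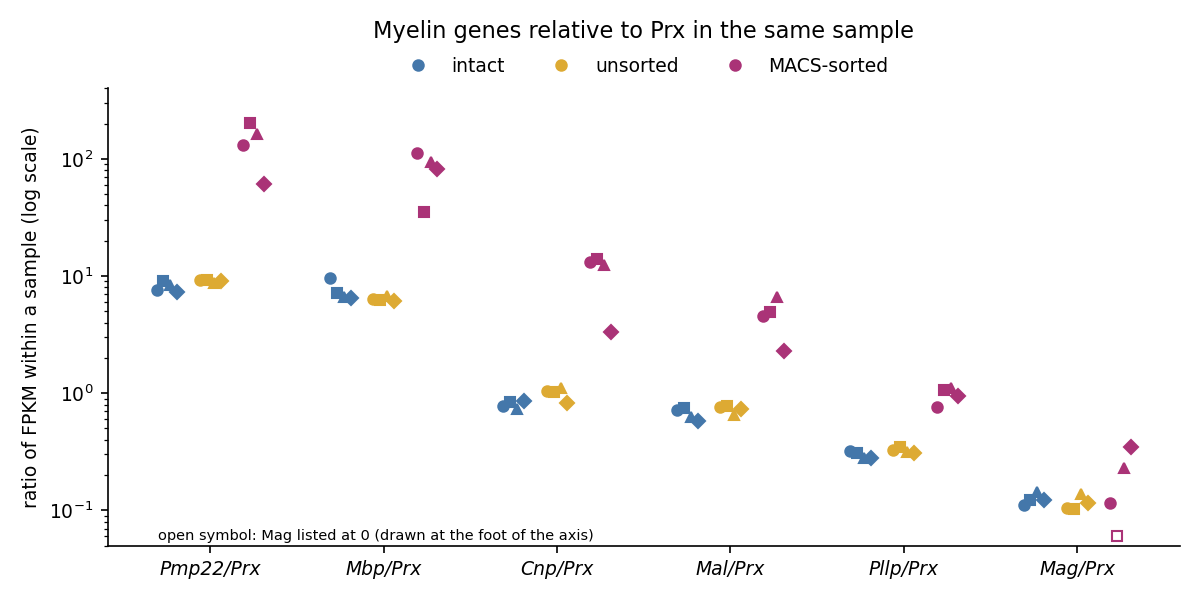
Ratio of the FPKM of 6 myelin genes to that of Prx in the same sample, on a log axis, in intact, unsorted and MACS-sorted samples. Symbols are replicates. Pmp22 is 8.76 to 9.25 times as high as Prx in unsorted and 60.9 to 204 times in MACS-sorted samples.

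Other proteins of the sheath were taken from a list of 12. Of these, 9 were called lower, 1 higher and 2 were not called, with a median log2-fold change of -3.90. Gjc3 and Cldn19, a connexin and a claudin of the sheath, had log2-fold changes of -5.25 and -5.23. Pmp2, Ncmap, Gldn, Drp2 and Cadm4 were called lower as well, with log2-fold changes of -4.67, -3.94, -3.87, -2.91 and -2.36.

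The tetraspanins differed. Tspan2 was called higher, with a log2-fold change of 0.60 (SE 0.09, limma adjusted p = 4.9e-04) from 27.1 ± 3.22 (SD, n = 4) to 40.9 ± 1.89 (SD, n = 4) FPKM. Cd9 was at 523 to 690 FPKM in unsorted and at 508 to 769 FPKM in MACS-sorted samples, with a log2-fold change of -0.04 (limma, adjusted p = 0.852). Gjb1, the connexin known from X-linked neuropathy, was too low to be called, at 3.01 to 5.18 FPKM before and 0.0959 to 0.672 FPKM after.

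Of the 8 transcription factors of myelination, 5 passed the filter and 3 were called lower. Sox10 had a log2-fold change of -5.54 (SE 0.59, limma adjusted p = 5.4e-05), Egr2 of -4.31 (SE 0.95, limma adjusted p = 0.0043) and Nab1, a cofactor of the EGR proteins, of -0.53 (SE 0.11, limma adjusted p = 0.0038). Pou3f1 and Tead1 did not reach the level for a call, with log2-fold changes of -3.85 and -1.66. The call of Nab1 was lost under 3 other scalings, at -0.47, -0.36 and -0.45, and without unsorted replicate 4 or MACS-sorted replicate 1, at -0.47 and -0.46. Nab2 was listed at 0 in all unsorted and MACS-sorted samples.

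Of the 11 enzymes of myelin lipids, 6 were called lower and none higher. Ugt8a, which makes galactosylceramide, and Fa2h, which hydroxylates its fatty acid, had log2-fold changes of -4.86 and -4.25. For Gal3st1, the sulfatide synthase, the change was -2.45, and for the desaturase gene Fads2 it was -1.54.

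Among 12 genes of myelination signalling and trafficking, 8 were called lower and none higher. Erbb3, the neuregulin receptor subunit, Lgi4, a secreted Schwann cell protein, and Gpr126, a receptor needed for myelination, had log2-fold changes of -5.66, -5.62 and -4.86, and Lama2, a laminin chain, of -4.29. Erbb2, the partner of Erbb3, was listed at 0 in all 4 MACS-sorted samples.

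Genes that restrain myelination or mark repair Schwann cells numbered 12, of which 8 passed the filter, 5 were called lower and 1 higher. The higher one, Id4, overlapped between the groups and lost its call in 10 of 20 alternatives, and Jun, 1 of the 5 lower, lost it in 11 of 20. Sox2, a factor of immature Schwann cells, Notch1 and Ngfr, the p75 neurotrophin receptor, had log2-fold changes of -5.81, -3.29 and -1.30. Ncam1 and Id2 were not called, with log2-fold changes of -0.15 and 0.45. Of 8 markers of non-myelinating Schwann cells, which ensheath small axons without myelin, 7 passed the filter, 5 were called lower and none higher.

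Unsorted and intact ganglia were compared next, which asks how the same genes differed after dissociation and filtering without sorting. Mice per sample, at 1, 2 and 8, go with the group in all 3 comparisons, so that their part cannot be told apart. None of the 7 was called in either direction by limma, against 2.76% of 12392 genes called lower and 4.29% called higher. None lacked overlap between the groups, against 12% of genes that were lower without overlap and 20.8% that were higher, and 2 of the 7 had an unadjusted p under 0.05. All 7 log2-fold changes were negative, with a median of -0.25 against 0.01 over all genes tested. This comparison and the last share the unsorted samples.

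Mbp was at 1321, 610, 679 and 551 FPKM in intact replicates 1 to 4, and its log2-fold change in unsorted samples was -0.59 (SE 0.26, limma adjusted p = 0.127). Mag was at 15.1, 10.3, 14.8 and 10.5 FPKM, with a log2-fold change of -0.49 (SE 0.16, limma adjusted p = 0.053). Prx was at 136, 84.8, 104 and 84.9 FPKM, with -0.38 (SE 0.19, limma adjusted p = 0.165). These 3 genes lay nearest to the threshold, and each was called lower under 1 or more other scalings or left-out samples, given with the dependence on processing.

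For the other 4 members, as for Prx, the interval of the difference included 0. Pmp22 was at 1029, 773, 866 and 622 FPKM in intact ganglia, with a 95% interval of the log2-fold change from -0.64 to 0.22. The values of Mal were 97.1, 63.4, 64.8 and 49.6 FPKM (interval -0.78 to 0.28), and those of Pllp 43.6, 26.1, 29.3 and 23.8 FPKM (interval -0.72 to 0.22). Cnp, with 106, 70.8, 76.4 and 72.6 FPKM, had a log2-fold change of -0.07 (interval -0.38 to 0.25). The exact two-sided permutation test gave p from 0.0571 for Mbp to 0.743 for Cnp.

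Intact replicate 1 was the highest of its group for 7 of 7 members, and it is the sample with the skeletal muscle transcripts. It was also highest for 9 of 12 other sheath genes, 7 of 9 satellite glia markers and 4 of 8 Schwann cell markers. Its summed FPKM was 345341, against 283676 to 293648 in the other intact samples. The share of the members in that sum, 0.796%, was also the highest of the group. Its oligodendrocyte sum was 35.8 against 11.8 to 16.7 in the other intact samples. Unsorted replicate 3 was the lowest of its group for 7 of 7 members and for 12 of 12 other sheath genes. It was also lowest for 7 of 8 Schwann cell markers and 6 of 9 satellite glia markers. Without intact replicate 1 the log2-fold change of Cnp was 0.066, and without unsorted replicate 3 it was 0.019. The part of muscle or fibroblast transcripts in these levels was not tested.

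Dissociation went with higher levels of genes from the list of those that restrain myelination or mark repair Schwann cells. Of 12 such genes 8 passed the filter, and 6 of them rose while none fell. The count was 2 when FPKM was divided by pan-neuronal genes, which moved the median of all genes to -0.26, and the median of the list stayed positive in each of 20 alternatives, between 0.37 and 0.69. Jun, the factor at the head of the repair program, was at 24.5 to 27.3 FPKM in intact and at 58.1, 60.8, 121 and 144 FPKM in unsorted samples, a log2-fold change of 1.77 (SE 0.28, limma adjusted p = 0.0048). Jun is also known as an immediate response gene of neurons and other cells. Shh and Sox2 rose by 0.91 and 0.83 on the log2 scale, and Notch1, Ncam1 and Ngfr by 0.69, 0.60 and 0.59. Against unsorted samples, MACS-sorted samples had log2-fold changes of -0.15 for Ncam1, -0.84 for Jun, -0.91 for Shh and -1.30 for Ngfr. For Notch1 and Sox2 they were -3.29 and -5.81. Between unsorted and intact samples 7 of 9 pan-neuronal genes were also higher without overlap, against 20.8% of all genes tested. None of the 9 was called, and their median log2-fold change was 0.31. The cell type in which the 6 genes rose was not tested.

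Of the 12 other sheath proteins, 2 fell, Pmp2, a fatty acid binding protein, with a log2-fold change of -1.48 (SE 0.32, limma adjusted p = 0.014), and Gjb1 with -0.77 (SE 0.21, limma adjusted p = 0.031). With all 12 samples in the fit neither was called (limma, adjusted p = 0.124 and 0.181), and Gjb1 also lost its call without intact replicate 3 or unsorted replicate 1, 2 or 3. Of the 6 transcription factors tested none was called by limma, and 1 of them, Pou3f1, had an adjusted p of 0.026 at a level below that for a call. Egr2 was at 4.34 to 8.21 FPKM in intact and at 6.96, 6.37, 14.4 and 28.4 FPKM in unsorted samples, which overlap. Of the lipid enzymes Fads2 rose by 0.56, and of the signalling genes Dag1, which encodes dystroglycan, rose by 0.56 and Gpr126 by 0.53 on the log2 scale, and all 3 calls were lost with pan-neuronal scaling. Markers of other cells also moved in this comparison. Satellite glia markers rose in 4 of 9 cases and fell in none, and 3 of these calls, Mmd2, Apoe and Gja1, were lost with pan-neuronal scaling. Endothelial markers rose in 5 of 7 cases and fell in none, with a median log2-fold change of 0.97, and large-diameter neuron markers rose in 4 of 10 and fell in none, with a median of 0.56. Other lists fell. Fibroblast markers were called lower in 5 of 7 cases, macrophage markers in 4 of 8 and skeletal muscle genes in 5 of 7. None of these lists had a gene called higher, and the median log2-fold changes were -1.06, -1.26 and -5.02. In the alternatives the counts went down to 1, 1 and 0. No Schwann cell marker of 8 was called. The part of these cells in the values of the repair genes was not tested.

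MACS-sorted and intact samples were compared last, over the whole path from tissue to sorted cells, and share samples with both comparisons above. All 7 members were called lower by limma, against 10.7% of 12234 genes called lower and 7.54% called higher, and 6 of them had no overlap, against 21.9% of genes that were lower without overlap and 15.6% that were higher. Prx had a log2-fold change of -5.06, Mag of -4.71, Pllp of -3.38, Mal of -2.41, Cnp of -1.56 and Pmp22 of -1.14. Mbp, at -1.79 (SE 0.55, limma adjusted p = 0.030), was called although MACS-sorted replicate 4 lay within the intact range, and the exact two-sided permutation test gave p = 0.0571. Its call was lost without intact replicate 1 (-1.51, limma adjusted p = 0.068), intact replicate 3 (-1.83, limma adjusted p = 0.056), MACS-sorted replicate 1 (-1.87, limma adjusted p = 0.055) or MACS-sorted replicate 3 (-1.75, limma adjusted p = 0.072).

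**Figure D4:**
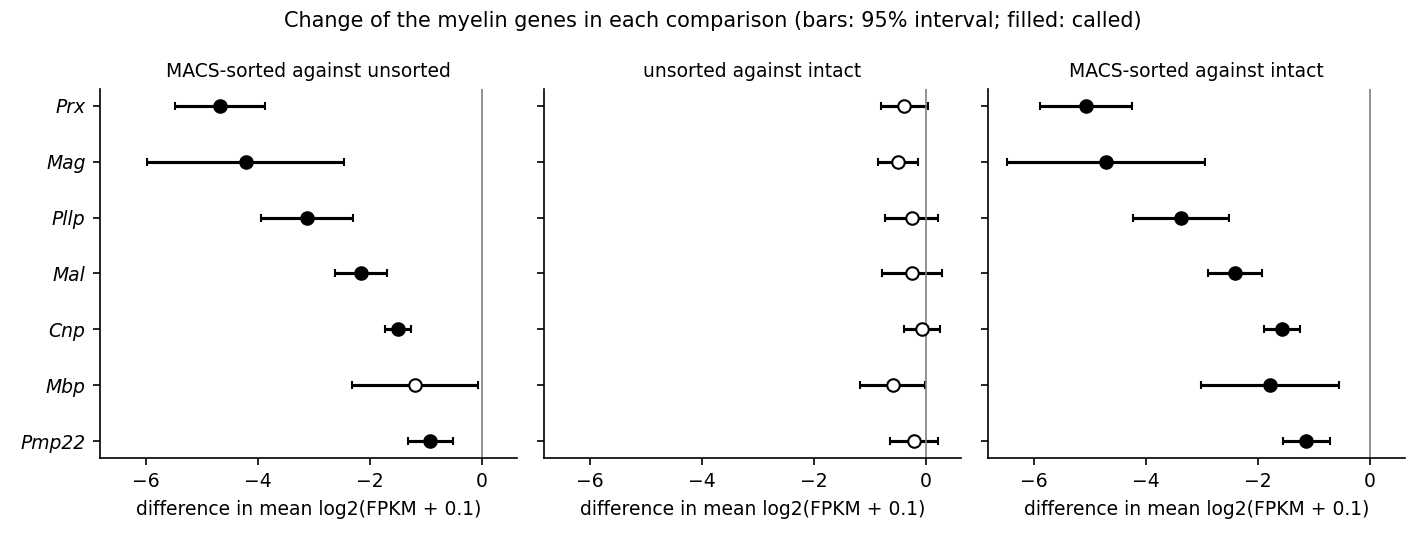
Difference in mean log2(FPKM + 0.1) of the 7 myelin genes in each of 3 comparisons, with 95% intervals from limma. Filled points were called and open points were not. At this added constant Prx has the largest fall in both comparisons with MACS-sorted samples, at -4.68 and -5.06, and all 7 points are open between unsorted and intact samples.

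The genes whose levels were most like the mean of the 7 were ranked over all samples. Over 12 samples the highest Pearson correlations of log2(FPKM + 0.1), among 12283 genes, were those of Drp2 (0.999), Ncmap (0.997), Jam3 (0.995), Gjb1 (0.994) and Arhgap19 (0.994). Drp2 encodes a dystrophin-related protein that is known to bind periaxin, and Jam3 a junctional adhesion molecule. Over the 8 unsorted and intact samples Drp2 was again first (0.995), followed by Limch1 (0.987), Med17 (0.981), Pttg1ip (0.974) and Cers2 (0.974), a ceramide synthase. All samples share the group structure, and the correlations describe these samples only. Of the members themselves Mbp followed the mean least over 12 samples (0.872) and Pllp most (0.993). Each member is part of that mean, which raises its value, so these correlations cannot be set beside those of other genes.

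The 6 members named with coordinates below lie on 4 chromosomes of mm10 as the table gives them. Pmp22 spans chr11:63131510-63159546 and Cnp chr11:100574939-100581739. Mag spans chr7:30899183-30914832 and Prx chr7:27499324-27520041, where the annotation also places Gm15541 over the gene. Mal spans chr2:127633226-127656695 and Pllp chr8:94674895-94696242. The values are for the whole gene, with all its transcripts joined.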

How the data were processed

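RNA of 4 intact, 4 unsorted and 4 MACS-sorted DRG samples was sequenced. The authors aligned reads to mm10 with TopHat2, merged lanes with SAMtools and estimated expression with Cufflinks 2.1.1, and the deposited values are FPKM for each gene and sample. Read counts were not used. FPKM is scaled by the mapped fragments of the sample, so abundant transcripts of other cells lower all other values. It does not sum to a fixed total, and the sum ranged from 283676 in intact replicate 2 to 345341 in intact replicate 1.

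Differences between groups were tested two-sided in limma 3.58.1 (R 4.3.3) on values of log2(FPKM + 0.1), the prior variance following a trend in mean level, over genes that averaged 1 FPKM or more in the 8 samples of a comparison, with Benjamini-Hochberg adjustment over all of them. Calls needed an adjusted p under 0.05, a log2 ratio of means beyond 0.5 and, in whichever group was higher, more than 5 FPKM on average. CuffDiff, named in the study's methods, works from alignments, and limma took its place. Single genes were also compared by exact permutation over 70 splits. The limma step was tested on simulated data.

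The members, the gene lists and the rule for named genes (the members, called or listed sheath and myelination genes, markers and the 5 most alike genes) were chosen with earlier results of these data known. Mobp and the blood, muscle and endothelial sums were singled out after their values were seen. Alternatives were the constant, the filter, the fit, 4 scalings and leaving out each sample. Leaving out single samples from the residual shares was added after seeing the data. Promoter windows came from RefSeq. Values of a few listed genes were left out of the text and of the plots, while the counts include them.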

Additional observations from a re-analysis of the deposited data

Results flagged for a closer look

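In each group of 4 samples the gap between the most extreme sample and its nearest neighbour was divided by the range of the group and held against Dixon's 95% critical value for 4 samples. Of 21 groups (7 genes in 3 groups of samples), 5 passed it, where chance alone flags about 1 in 20. The groups are not independent, since the genes share samples.

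After sorting, replicate 4 lay far above the rest for Prx, at 7.08 FPKM against 2.09 to 2.25 in the other 3 samples, and for Pllp, at 6.75 FPKM against 1.70 to 2.32. Intact replicate 1, the sample with skeletal muscle transcripts, lay far above the rest for Mbp, at 1321 FPKM against 551 to 679, and for Cnp, at 106 FPKM against 70.8 to 76.4. Unsorted replicate 4 was far above the rest for Mag, at 11.0 FPKM against 8.07 to 8.37.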

How the results depend on the processing

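For 6 members the call in MACS-sorted against unsorted samples held in every alternative run, except that Mag was not tested with a mean of at least 5 FPKM. Mbp was called without MACS-sorted replicate 4 and with the block below, and in no other. Same-numbered samples did not deviate together (correlations of -0.14 to 0.07). This gives no sign that the replicate numbers pair them, but it cannot exclude shared mice or days. With the replicate block 991 genes were higher and 1516 lower in that comparison, and Mbp passed (log2-fold change -1.19, limma adjusted p = 0.040), while the other member calls of the 3 comparisons did not change.

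Between unsorted and intact samples the count of members called lower was 0, but 2 with quantile normalization (Mbp and Mag), 1 with red blood cell genes removed (Mag), 2 when divided by pan-neuronal genes (Mag and Prx), and 0 to 1 with a sample left out (Mag without intact replicate 2 or unsorted replicate 4). The log2-fold change of Cnp ranged from -0.13 to 0.066 with a sample left out, and was positive without intact replicate 1 (0.066) or unsorted replicate 3 (0.019). Division by pan-neuronal genes moved the median of all genes to -0.26, beside -0.77 for Mag and -0.66 for Prx, and gave 107 higher and 1358 lower calls in place of 531 and 342. Removing red blood cell genes gave 343 higher and 428 lower, and quantile normalization 421 and 408. Leaving out a sample gave 187 to 334 lower. In MACS-sorted against intact samples division by pan-neuronal genes gave 478 higher and 1950 lower, with a median of -0.23, quantile normalization gave 1248 and 1183 in place of 922 and 1313, with a median of 0.13, and members called lower were 6 to 7 with a sample left out. In MACS-sorted against unsorted samples the split of 981 higher and 1505 lower became 1382 and 1285 with quantile normalization (median of all genes 0.10) and 1252 and 1264 with pan-neuronal genes. The causes were not tested. Averaging unsorted replicates 1 and 2 gave 463 higher and 237 lower against intact samples, and does not apply to MACS-sorted against intact samples. Sample depths were not among the values used, so that no counting error is given for values under 1 FPKM such as those of Mag.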
